A study of Homo sapiens with 8 samples.

Results

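The 35 genes described here make or regulate cholesterol and fatty acids. They were chosen by symbol from a list of pathway names, and all 35 are among the 19718 coding genes of the deposited table. RNA was sequenced from HEL OTX P/R cells, a derivative of the HEL92.1.7 line that persisted through and became resistant to OTX015, and from parental HEL92.1.7 cells, an erythroleukaemia line which the labels present as modelling a secondary form of acute myeloid leukaemia. OTX015, or birabresib, is an inhibitor of BET proteins, which bind acetylated histones and help transcribe many genes. The 4 groups were P/R cells given 1000 nM OTX015 for 8 hours, untreated P/R cells, parental cells given the same dose for the same time, and untreated parental cells. All cells grew in RPMI1640 medium with 20% fetal bovine serum, a source of lipoprotein cholesterol that both lines shared. Each group had 2 libraries from cultures treated independently, so 8 libraries in all, and P/R is a single derived line.

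Cholesterol is built from acetyl-CoA through mevalonate, isoprenoid units, squalene and lanosterol, and fatty acids from acetyl-CoA by carboxylation, chain extension and desaturation. The transcription factors SREBF1 and SREBF2 are carried by SCAP out of the endoplasmic reticulum when sterol is scarce and switch on most of these genes, while INSIG1 and INSIG2 hold them back. Proliferating leukaemia cells both make these lipids and take them up from lipoproteins.

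The deposited values, which the authors quantile normalized, are read as FPKM, a level per length of transcript and per size of library. All 35 genes passed the filter of at least 1 FPKM in at least 2 libraries, as did 11255 genes of the table in all. Differences were tested on log2(FPKM + 1) with limma's moderated test, with p-values adjusted by Benjamini-Hochberg over all 11255 genes, and a gene is called where the adjusted p is under 0.05. Means are given with the SD of 2 libraries. Statements that libraries overlap or not are descriptions, and the share over all genes was not counted. For an unchanged gene, 2 libraries separate fully from 2 others with a probability of 0.333. Quantile normalization evens the distribution of values between libraries, and parental untreated replicate 1 sums to 678133 FPKM. Sequencing depth is therefore unknown, and a change in total RNA per cell or in the number of cells cannot be told apart from no change. The libraries of a group correlated at 0.9957 to 0.9966 across the tested genes, against 0.9591 to 0.9846 between groups, and genes are not independent replicates. Defining genes of the line were present, with GATA1 at 327.1 to 385.7 FPKM and ITGA2B at 300.1 to 390.1 FPKM over the 8 libraries. The T cell, B cell, hepatocyte, fibroblast and epithelial markers CD3E, CD3D, MS4A1, ALB, APOA1, COL1A1, DCN, EPCAM and KRT19 never passed 0.975 FPKM. HEXIM1, which rises when BET proteins are blocked, was at 64.6 ± 0.468 FPKM in treated and 23.1 ± 0.107 FPKM in untreated P/R cells, and at 87.9 ± 4.57 FPKM in treated and 26.6 ± 0.152 FPKM in untreated parental cells.

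On the per-length FPKM scale the fatty acid synthase gene FASN was the most abundant member in every library, at 224.6 to 258.4 FPKM. The fatty acid desaturase gene FADS2 followed at 177.8 to 221.1 FPKM, and the next places were held, in an order that differed between groups, by the sterol genes FDPS at 124.6 to 159.3 FPKM, SQLE at 98.4 to 130.5 FPKM and FDFT1 at 79.2 to 104.3 FPKM. At the low end were STARD4, a cytosolic sterol carrier, at 2.58 to 4.76 FPKM and INSIG2 at 3.39 to 4.8 FPKM. The plot of levels by library shows APOE, TM7SF2, TMEM97 and AACS at levels that differ by group.

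**Figure D1:**
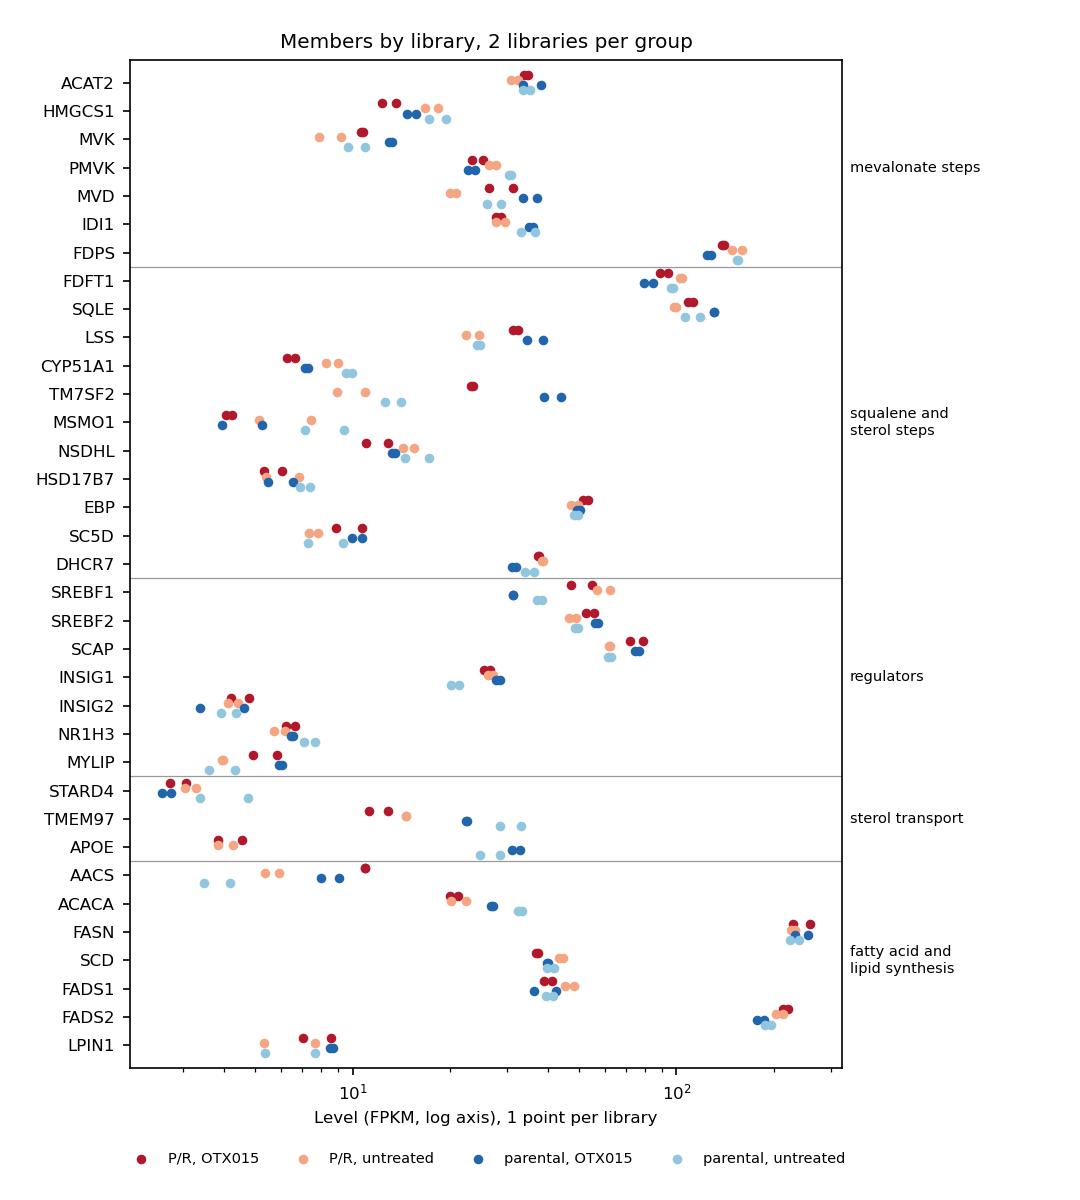
Level of each of the 35 genes in FPKM (log axis), 1 point per library and 2 libraries per group, ordered by role. APOE splits by line, at 3.84 to 4.56 FPKM in P/R and 24.7 to 32.9 FPKM in parental cells, while FASN lies at 224.6 to 258.4 FPKM in all 4 groups.

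OTX015 shifted the sterol steps in both directions. In P/R cells 9 of the 35 genes rose and 9 fell, with 22.5% of all tested genes called higher and 21.8% called lower. In parental cells 10 rose and 11 fell, with 25.7% and 24.7% of all tested genes called higher and lower. The median log2 change of the members was 0.04 in P/R and -0.03 in parental cells, and that of all tested genes was 0.02 in both. These shares are the background against which the members' counts are read, and no claim is made that the list stands apart. Most changes were small. A log2 change of at least 0.5 was seen for 5.71% of members and 16.4% of all genes in P/R cells, and for 11.4% of members and 20.5% of all genes in parental cells. The median absolute log2 change was 0.18 for members and 0.22 for all genes in P/R cells. In parental cells it was 0.27 for members and 0.24 for all genes. Of the 8 erythroid and megakaryocyte markers, 1 rose (GATA1) and 4 fell in each line, KLF1 and GP1BA among them in both, and their part in these responses was not tested.

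**Figure D2:**
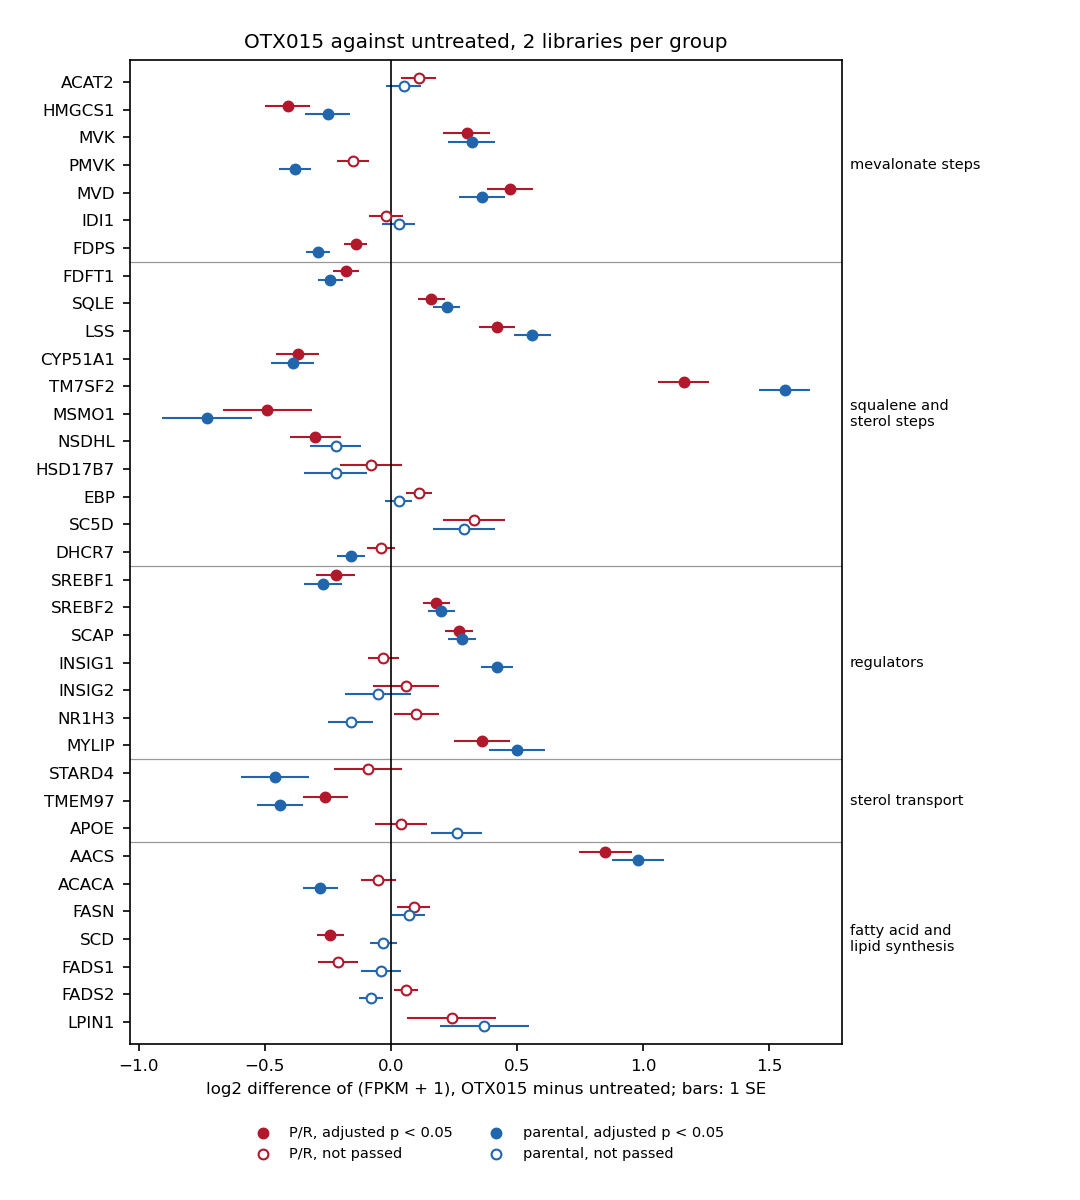
Log2 difference of (FPKM + 1), OTX015 minus untreated, with 1 SE, in P/R (red) and parental (blue) cells. Filled points have an adjusted p under 0.05. TM7SF2 and AACS stand to the right in both lines, and MSMO1 and CYP51A1 to the left.

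The largest rise among the members was that of TM7SF2, a sterol C14 reductase that acts just after CYP51A1 on the way from lanosterol to cholesterol. It read 23.2 and 23.5 FPKM in treated P/R cells, against 10.9 and 8.96 FPKM in untreated ones. In parental cells it read 38.9 and 44.1 FPKM with OTX015, against 14.1 and 12.6 FPKM without. The treated and untreated libraries did not overlap in either line. The log2 change was 1.16 ± 0.101 (SE) in P/R cells (adjusted p = 3.43e-05) and 1.56 ± 0.101 in parental cells (adjusted p = 4.61e-06). AACS, which activates the ketone body acetoacetate for lipid synthesis in the cytosol, was next. It stood at 10.9 FPKM in both treated P/R libraries and at 5.35 and 5.91 FPKM in the untreated ones. Parental levels were 9.06 and 7.98 FPKM in treated and 4.18 and 3.49 FPKM in untreated cells. This was a 1.94-fold rise in P/R cells (log2 0.85 ± 0.104, adjusted p = 0.000223) and a 2.22-fold rise in parental cells (log2 0.98 ± 0.104, adjusted p = 7.02e-05). Exons of TM7SF2 overlap those of VPS51 on the same strand in GENCODE release 29. VPS51, a vesicle tethering gene, had log2 differences of 0.01 in P/R (adjusted p = 0.925) and 0.08 in parental cells (adjusted p = 0.37).

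Because the results turn on a few genes, the promoters of TM7SF2 and AACS, which rose most, of SREBF2, and of TMEM97 and APOE, which differed most between the lines, are printed from RefSeq (build GRCh38.p14). Each runs from 250 bases before to 50 after the gene's start, 5′ to 3′. Capitals mark the CCAAT box (CCAAT, or ATTGG on the other strand), the site of the factor NF-Y, and a sterol regulatory element searched as TCACNCCAC or GTGGNGTGA. In SREBF2 the matches do not overlap. The APOE window is 1 of 3 that the table gives for this gene. Its last 40 bases were not found in the APOE transcripts of GENCODE release 29, while those of the other printed windows were found in transcripts of their genes.
TM7SF2, chr11:65111622-65111921, plus strand: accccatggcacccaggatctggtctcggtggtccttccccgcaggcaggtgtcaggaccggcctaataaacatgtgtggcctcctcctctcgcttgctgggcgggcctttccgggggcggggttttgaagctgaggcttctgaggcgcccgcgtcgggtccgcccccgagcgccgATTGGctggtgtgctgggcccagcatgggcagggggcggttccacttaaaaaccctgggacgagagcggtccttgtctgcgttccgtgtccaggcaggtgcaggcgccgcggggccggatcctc
AACS, chr12:125065185-125065484, plus strand: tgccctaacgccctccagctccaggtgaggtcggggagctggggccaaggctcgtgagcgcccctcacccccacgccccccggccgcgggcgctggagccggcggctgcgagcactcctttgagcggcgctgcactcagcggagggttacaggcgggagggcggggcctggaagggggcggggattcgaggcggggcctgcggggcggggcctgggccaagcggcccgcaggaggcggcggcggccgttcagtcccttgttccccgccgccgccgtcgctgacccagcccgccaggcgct
SREBF2, chr22:41832855-41833154, plus strand: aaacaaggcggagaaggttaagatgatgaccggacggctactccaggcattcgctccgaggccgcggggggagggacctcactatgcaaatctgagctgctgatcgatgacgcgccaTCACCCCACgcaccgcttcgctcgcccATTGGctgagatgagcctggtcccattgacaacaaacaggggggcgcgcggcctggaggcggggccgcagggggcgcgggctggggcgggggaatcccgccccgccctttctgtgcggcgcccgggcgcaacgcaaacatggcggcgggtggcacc
TMEM97, chr17:28318950-28319249, plus strand: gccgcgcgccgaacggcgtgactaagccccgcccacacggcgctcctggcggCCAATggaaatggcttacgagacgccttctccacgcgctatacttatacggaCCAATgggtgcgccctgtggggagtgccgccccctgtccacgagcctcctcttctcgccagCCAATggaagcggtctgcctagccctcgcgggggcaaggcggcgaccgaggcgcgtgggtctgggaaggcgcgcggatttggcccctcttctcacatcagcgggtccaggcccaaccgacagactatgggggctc
APOE, chr19:44905546-44905845, plus strand: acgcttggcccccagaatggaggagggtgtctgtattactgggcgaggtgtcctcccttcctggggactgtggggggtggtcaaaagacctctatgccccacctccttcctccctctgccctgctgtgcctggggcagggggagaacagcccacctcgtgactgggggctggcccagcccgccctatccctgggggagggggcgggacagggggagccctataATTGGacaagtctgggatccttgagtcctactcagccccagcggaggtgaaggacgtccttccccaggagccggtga

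Of the 35 genes, 31 had a promoter in the RefSeq table, with 47 windows of 300 bases. TCACNCCAC was found in 1 of the 47 windows, that of SREBF2, where it starts 133 bases before the gene's start. It was found in 1.13% of all 35116 windows of the table and in 1.08% of the 12642 windows of tested genes. A CCAAT box was present in 27 of the 47 windows (57.4%), against 34.6% of all windows and 35.2% of those of tested genes. TMEM97 has 3 copies and TM7SF2, SREBF2 and APOE have 1 each in the printed windows, while AACS has none. A match of letters is a description of the window and was not tested as a binding site, and sterol elements that differ from these letters are not counted.

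The mevalonate steps were mixed. ACAT2 makes acetoacetyl-CoA, HMGCS1 adds the next acetyl unit, MVK, PMVK and MVD turn mevalonate into the isoprenoid unit, and IDI1 and FDPS isomerise and join these units. Of these 7 genes, 2 rose, 2 fell and 3 did not pass in P/R cells (median log2 -0.02). In parental cells 2 rose, 3 fell and 2 did not pass (median 0.03). MVD read 31.3 and 26.3 FPKM in treated and 20.9 and 20.0 FPKM in untreated P/R cells, and 33.7 and 37.2 FPKM in treated and 26.0 and 28.7 FPKM in untreated parental cells. Its treated libraries were above the untreated ones in both lines, and it rose by a log2 of 0.47 in P/R (adjusted p = 0.00282) and 0.36 in parental cells (adjusted p = 0.00905). MVK rose 1.25-fold in P/R (adjusted p = 0.0285) and 1.27-fold in parental cells (adjusted p = 0.0188). HMGCS1, at the entry to the pathway, went the other way. It read 12.3 and 13.6 FPKM in treated and 16.7 and 18.3 FPKM in untreated P/R cells, and 14.7 and 15.7 FPKM in treated and 17.2 and 19.4 FPKM in untreated parental cells. The treated libraries lay below the untreated ones without overlap, and HMGCS1 fell by 0.41 on the log2 scale in P/R (adjusted p = 0.00524) and by 0.25 in parental cells (adjusted p = 0.0394). FDPS fell to 0.908 of the untreated level in P/R cells (adjusted p = 0.0369) and to 0.82 in parental cells (adjusted p = 0.000839). PMVK fell in parental cells, where it read 23.9 and 22.7 FPKM with OTX015 against 30.4 and 30.9 FPKM without (log2 -0.38, adjusted p = 0.00102). Its log2 difference of -0.15 in P/R cells did not pass (adjusted p = 0.0842). ACAT2 and IDI1 passed in neither line, with log2 differences between -0.02 and 0.11. TCP1, which overlaps ACAT2 on the opposite strand, fell in both lines, and MMAB, which overlaps MVK likewise, fell in P/R cells (adjusted p = 0.00956). Whether the sequencing kept strand is not given, so overlapping genes may share reads.

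Among the 11 genes from squalene to cholesterol, 3 rose, 4 fell and 4 did not pass in each line, with medians of -0.04 in P/R and -0.16 in parental cells. SQLE and LSS, which oxidise squalene and close its rings to lanosterol, rose along with TM7SF2. LSS read 31.2 and 32.4 FPKM in treated and 24.5 and 22.4 FPKM in untreated P/R cells, and 34.6 and 38.7 FPKM in treated and 24.2 and 24.7 FPKM in untreated parental cells. It rose by a log2 of 0.42 ± 0.0723 in P/R (adjusted p = 0.00137) and 0.56 ± 0.0723 in parental cells (adjusted p = 0.000216). SQLE, the epoxidase, rose 1.12-fold in P/R (adjusted p = 0.0376) and 1.16-fold in parental cells (adjusted p = 0.00819). CYP51A1, which removes the C14 methyl group of lanosterol, fell between these rising steps. Its levels were 6.66 and 6.26 FPKM in treated and 9.00 and 8.27 FPKM in untreated P/R cells, and 7.29 and 7.11 FPKM in treated and 9.54 and 9.94 FPKM in untreated parental cells. No treated library reached an untreated one of its line, and CYP51A1 fell by 0.37 on the log2 scale in P/R (adjusted p = 0.00646) and by 0.39 in parental cells (adjusted p = 0.00411). MSMO1, the C4 methyl oxidase, read 4.06 and 4.23 FPKM in treated and 7.46 and 5.15 FPKM in untreated P/R cells (log2 -0.49 ± 0.178, adjusted p = 0.0499). Its parental libraries read 5.27 and 3.95 FPKM with OTX015 and 7.15 and 9.42 FPKM without (log2 -0.73 ± 0.178, adjusted p = 0.00785). The groups did not overlap, though the untreated libraries of each line were far apart. FDFT1, the squalene synthase, fell to 0.883 of the untreated level in P/R (adjusted p = 0.0194) and to 0.844 in parental cells (adjusted p = 0.00365). NSDHL, a C4 decarboxylase, fell in P/R cells (log2 -0.30, adjusted p = 0.0398), and its log2 difference was -0.22 in parental cells (adjusted p = 0.0952). DHCR7, the last reductase, had a log2 difference of -0.04 in P/R cells (adjusted p = 0.604) and fell in parental cells (log2 -0.16, adjusted p = 0.0419). HSD17B7, EBP and SC5D, a reductase, an isomerase and a desaturase of the late steps, passed in neither line, with adjusted p from 0.0548 to 0.705.

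Of the 7 regulators, 3 rose, 1 fell and 3 did not pass in P/R cells (median log2 0.1), and 4 rose, 1 fell and 2 did not pass in parental cells (median 0.2). SREBF2, the sterol-responsive factor whose promoter carries the TCACNCCAC match, read 55.5 and 52.7 FPKM in treated and 48.8 and 46.5 FPKM in untreated P/R cells. Parental cells had 55.9 and 57.3 FPKM with OTX015 and 48.5 and 49.6 FPKM without. The treated libraries were higher in both lines, by a log2 of 0.18 in P/R (adjusted p = 0.0224) and 0.20 in parental cells (adjusted p = 0.0112). Its escort SCAP rose 1.21-fold in P/R (adjusted p = 0.00379) and 1.22-fold in parental cells (adjusted p = 0.00253). SREBF1, the factor tied more to fatty acid synthesis, moved in the opposite direction. It fell to 0.86 of the untreated level in P/R cells (adjusted p = 0.0426) and to 0.827 in parental cells (adjusted p = 0.0158). RAI1, whose exons overlap SREBF1 on the opposite strand, fell too, by 0.33 on the log2 scale in P/R (adjusted p = 0.0234) and 0.53 in parental cells (adjusted p = 0.00183). MYLIP, a ubiquitin ligase induced by the sterol receptor NR1H3 that degrades lipoprotein receptors, read 4.91 and 5.86 FPKM in treated and 3.99 and 3.96 FPKM in untreated P/R cells. It rose 1.35-fold there (adjusted p = 0.027) and 1.51-fold in parental cells (adjusted p = 0.00496). NR1H3 itself and INSIG2 passed in neither line (adjusted p from 0.166 to 0.784).

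INSIG1 had the lowest p of the members for a difference in response between the lines. It read 25.5 and 26.6 FPKM in treated and 26.1 and 27.1 FPKM in untreated P/R cells, so these libraries overlapped (log2 -0.03, adjusted p = 0.756). Parental cells read 27.7 and 28.5 FPKM with OTX015 and 20.2 and 21.3 FPKM without, a rise with no overlap (log2 0.42 ± 0.0618, adjusted p = 0.000466). Untreated P/R cells were already close to the treated parental level. The difference in response, P/R minus parental, was -0.45 ± 0.0874 on the log2 scale and did not pass over all genes (adjusted p = 0.15).

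Of the 3 sterol transport genes, 1 fell and 2 did not pass in P/R cells, and 2 fell and 1 did not pass in parental cells (median log2 -0.09 in P/R and -0.44 in parental cells). TMEM97, a sterol-binding membrane protein of the endoplasmic reticulum also known as the sigma-2 receptor, read 12.9 and 11.2 FPKM in treated P/R cells against 14.6 FPKM in both untreated libraries (log2 -0.26, adjusted p = 0.0384). Its parental levels were 22.6 and 22.4 FPKM with OTX015 and 28.6 and 33.2 FPKM without (log2 -0.44, adjusted p = 0.00307). Treated libraries were lower in each line. STARD4 had a log2 difference of -0.09 in P/R cells (adjusted p = 0.61), and in parental cells it read 2.58 and 2.76 FPKM with OTX015 and 3.39 and 4.76 FPKM without (log2 -0.46, adjusted p = 0.0194). APOE, the apolipoprotein that carries lipid out of and into cells, had a log2 difference of 0.04 in P/R (adjusted p = 0.785) and 0.26 in parental cells (adjusted p = 0.0602).

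Few of the fatty acid and lipid synthesis genes were called apart from AACS. Of these 7, 1 rose, 1 fell and 5 did not pass in each line. SCD, which introduces the double bond of oleate, read 37.4 and 36.9 FPKM in treated and 44.6 and 43.4 FPKM in untreated P/R cells (log2 -0.24, adjusted p = 0.00584). SCD averaged 39.9 ± 0.218 FPKM in treated and 40.8 ± 1.49 FPKM in untreated parental cells (log2 -0.03, adjusted p = 0.639). For ACACA, the carboxylase that commits acetyl-CoA to fatty acids, treated P/R libraries at 21.2 and 20.0 FPKM overlapped the untreated ones at 20.2 and 22.4 FPKM (log2 -0.05, adjusted p = 0.609). Parental ACACA fell, at 26.7 and 27.2 FPKM in treated and 32.5 and 33.4 FPKM in untreated cells (log2 -0.28, adjusted p = 0.00758). FASN averaged 243.9 ± 20.5 FPKM in treated and 229.4 ± 4.86 FPKM in untreated P/R cells (adjusted p = 0.325), and 243.6 ± 16.2 FPKM in treated and 231.9 ± 10.4 FPKM in untreated parental cells (adjusted p = 0.406). FADS1 and FADS2, desaturases of polyunsaturated fatty acids, and LPIN1, a phosphatidate phosphatase, passed in neither line, with adjusted p from 0.051 to 0.656. The LPIN1 estimates were wide, at a log2 of 0.24 ± 0.177 (SE) in P/R and 0.37 ± 0.177 in parental cells.

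OTX015 calls were shared by the lines for 16 genes, each in the same direction, which is 16 of the 18 P/R calls and 16 of the 21 parental calls. The share of calls common to both lines was not counted over all genes, so it is not claimed as particular to the members. They comprise 9 that rose (MVK, MVD, SQLE, LSS, TM7SF2, SREBF2, SCAP, MYLIP and AACS) and 7 that fell (HMGCS1, FDPS, FDFT1, CYP51A1, MSMO1, SREBF1 and TMEM97). The log2 changes in P/R and parental cells, which share no library, correlated at r = 0.925 over the 35 members and r = 0.891 over all 11255 genes. The difference in response was called for none of the 35, with a lowest adjusted p of 0.15. An unadjusted p under 0.05 was reached by 6 of the 35 members and by 1080 of all 11255 tested genes. In all genes 0.0622% were called with a more positive and 0.0178% with a more negative response in P/R cells. A response called in 1 line alone is therefore not shown to differ between the lines.

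These calls rest on 2 libraries per group, where an exact permutation test cannot go below p = 0.333, so they depend on limma's sharing of the spread among genes. Calls kept or lost on leaving out a library were not counted over all genes in any comparison. Whether the members' calls are more or less stable than others is therefore not known. Among the P/R calls, 7 of 18 held whichever library was left out, those of HMGCS1, MVD, LSS, TM7SF2, SCAP, AACS and SCD. Without untreated replicate 1, FDFT1 (adjusted p = 0.103), SQLE (0.147), CYP51A1 (0.0555), MSMO1 (0.317), NSDHL (0.0716), SREBF1 (0.241), MYLIP (0.0898) and TMEM97 (0.121) were lost, leaving 7 genes that rose and 3 that fell. Without untreated replicate 2, 5 rose and 4 fell, with MVK (0.202), FDPS (0.284), FDFT1 (0.0702), SQLE (0.111), NSDHL (0.182), SREBF1 (0.0504), SREBF2 (0.151), MYLIP (0.0982) and TMEM97 (0.119) lost. Leaving out treated replicate 1 gave 6 that rose and 5 that fell, without MVK (0.0808), FDPS (0.0768), FDFT1 (0.102), SQLE (0.0624), MSMO1 (0.161), NSDHL (0.225) and SREBF2 (0.107). Leaving out treated replicate 2 gave 7 and 5, without MVK (0.0977), FDPS (0.106), SQLE (0.142), MSMO1 (0.125), SREBF1 (0.256), MYLIP (0.16) and TMEM97 (0.213) and with SC5D gained (0.0381).

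Among the parental calls, 12 of 21 held whichever library was left out, those of PMVK, FDPS, FDFT1, LSS, CYP51A1, TM7SF2, SCAP, INSIG1, MYLIP, TMEM97, AACS and ACACA. Without untreated replicate 2, HMGCS1 (adjusted p = 0.221), MVK (0.115), MSMO1 (0.0627) and STARD4 (0.138) were lost. Without untreated replicate 1, MVD (0.0639), SQLE (0.06), DHCR7 (0.204), SREBF1 (0.0758) and SREBF2 (0.0567) were lost. Leaving out treated replicate 1 lost HMGCS1 (0.176), MVK (0.0793), DHCR7 (0.0817), SREBF1 (0.0608) and STARD4 (0.0857). Leaving out treated replicate 2 lost HMGCS1 (0.0669), MVK (0.0632), MVD (0.0694), MSMO1 (0.063), DHCR7 (0.173), SREBF1 (0.059), SREBF2 (0.0658) and STARD4 (0.055), so that 7 genes rose and 6 fell. Without treated replicate 1, 9 rose and 7 fell. Calls were gained for NSDHL (0.038), SC5D (0.0231) and APOE (0.0419) without untreated replicate 2, and for LPIN1 (0.0334) without untreated replicate 1.

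Other genes of lipid metabolism, from 6 further lists, included larger changes. Of 10 other sterol and isoprenoid genes, 1 rose, 1 fell and 8 did not pass in each line (median log2 0.05 in P/R and 0.07 in parental cells). FNTB, the β subunit of farnesyltransferase, read 17.1 and 16.9 FPKM in treated and 30.0 and 29.6 FPKM in untreated P/R cells (log2 -0.77, adjusted p = 2.33e-05). In parental cells FNTB averaged 16.8 ± 0.885 FPKM with OTX015 and 32.6 ± 0.468 FPKM without (log2 -0.92, adjusted p = 6.4e-06). Its α subunit FNTA rose 1.23-fold in P/R (adjusted p = 0.00471) and 1.3-fold in parental cells (adjusted p = 0.00111). Of the other genes of sterol sensing, 9 were tested, and 1 rose, 1 fell and 7 did not pass in each line (median -0.03 in P/R and 0.01 in parental cells). TRIB1, a pseudokinase linked to plasma lipids, fell to 0.627 of the untreated level in P/R (adjusted p = 0.000145) and to 0.495 in parental cells (adjusted p = 1.2e-05).

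Among 10 tested genes of sterol uptake, storage and efflux, 5 rose, 3 fell and 2 did not pass in P/R cells (median 0.23), and 6 rose, 3 fell and 1 did not pass in parental cells (median 0.32). NPC2, which passes cholesterol out of lysosomes with NPC1, averaged 25.0 ± 1.19 FPKM in treated and 14.6 ± 2.24 FPKM in untreated P/R cells (adjusted p = 0.000451). NPC1 rose 1.72-fold in P/R (adjusted p = 0.00198) and 1.87-fold in parental cells (adjusted p = 0.000729). The genes that fell include the lipoprotein receptors LRP8 and SCARB1, named after their values were seen. LRP8 fell by a log2 of 0.64 in P/R (adjusted p = 0.000997) and 0.59 in parental cells (adjusted p = 0.00122). SCARB1 fell by 0.53 in P/R (adjusted p = 0.000125) and in parental cells (adjusted p = 9.03e-05). Of 11 other fatty acid synthesis and elongation genes, 4 rose, 1 fell and 6 did not pass in each line (median 0.10 in P/R and 0.07 in parental cells). ACSS2, which makes acetyl-CoA from acetate, rose 1.8-fold in P/R (adjusted p = 8.7e-05) and 1.66-fold in parental cells (adjusted p = 0.000143). The elongase gene ELOVL6 fell to 0.56 of the untreated level in P/R (adjusted p = 0.00476) and to 0.656 in parental cells (adjusted p = 0.0247).

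Glycerolipid genes held the largest rise of any gene in these lists. Of 11 tested, 6 rose, 2 fell and 3 did not pass in P/R cells (median 0.39), and 5 rose, 2 fell and 4 did not pass in parental cells (median 0.23). DGAT1, which completes triglyceride synthesis, averaged 155.2 ± 8.0 FPKM in treated and 57.5 ± 6.74 FPKM in untreated P/R cells (log2 1.42, adjusted p = 5.93e-06). The parental level of DGAT1 was 185.3 ± 19.6 FPKM with OTX015 and 56.0 ± 1.45 FPKM without (log2 1.71, adjusted p = 1.53e-06). ACSL1, a long-chain acyl-CoA synthetase, averaged 3.84 ± 0.138 FPKM in treated and 1.08 ± 0.288 FPKM in untreated P/R cells, a 3.55-fold rise (adjusted p = 6.79e-05), and rose 3.43-fold in parental cells (adjusted p = 1.96e-05). Of 10 fatty acid oxidation genes, 5 rose, 1 fell and 4 did not pass in P/R cells (median 0.25), and 6 rose, 1 fell and 3 did not pass in parental cells (median 0.29). ACADS, a short-chain dehydrogenase, rose 1.44-fold in P/R (adjusted p = 0.00036) and 1.57-fold in parental cells (adjusted p = 8.35e-05). CPT2, a carnitine acyltransferase, rose 1.44-fold in P/R (adjusted p = 0.000139) and 1.45-fold in parental cells (adjusted p = 9.16e-05).

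**Figure D3:**
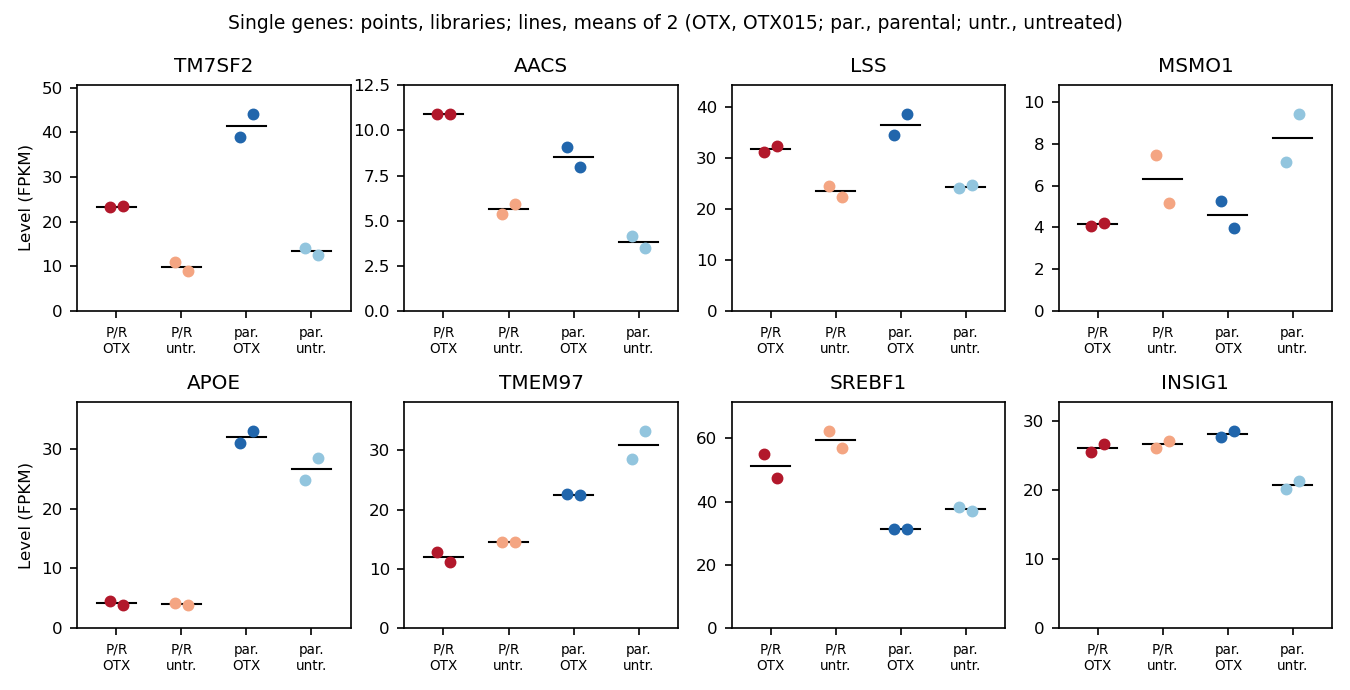
Levels of 8 genes in FPKM in P/R and parental cells with OTX015 or untreated, with each library as a point and the mean of 2 as a line. TM7SF2, AACS and LSS are higher and MSMO1 lower with OTX015, APOE and TMEM97 are lower and SREBF1 higher in P/R cells, and INSIG1 is low only in the untreated parental libraries among the 4 groups drawn.

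P/R cells differed from parental cells in 13 of these genes, most of all in APOE. Without drug, 3 of the 35 were higher and 7 lower in P/R cells, with 11.7% and 11.9% of all tested genes called higher and lower. Under OTX015, 5 were higher and 7 lower, with 12.7% and 11.7% of all tested genes. The members' median was -0.07 under OTX015 and -0.06 without drug, and that of all genes -0.01 in both. SREBF1 and AACS were higher and MVD, IDI1, SQLE, TM7SF2, TMEM97, APOE and ACACA lower in both comparisons, which is 9 of the 10 calls without drug and 9 of the 12 under OTX015. For all genes the share of line calls common to both conditions was not counted. Marker genes of the line moved with it. Of 8 erythroid and megakaryocyte genes, 3 were higher (TAL1, GP1BA and PF4) and 3 lower (KLF1 and ITGA2B among them) in untreated P/R cells. On chromosome 17, GP1BA lies among genes that were mostly higher in P/R cells, and ITGA2B near the edge of a stretch of lower ones. PF4, a platelet chemokine gene, averaged 48.9 ± 2.14 FPKM in untreated P/R and 2.33 ± 0.471 FPKM in untreated parental cells. GP1BA, a platelet receptor gene, averaged 69.2 ± 2.08 FPKM in untreated P/R and 30.6 ± 0.982 FPKM in untreated parental cells. Summed, the 8 genes held 3393.0 to 3643.1 FPKM in untreated P/R and 3586.0 to 3652.7 FPKM in untreated parental libraries. Under OTX015 the sums were 3106.2 to 3273.0 FPKM in P/R and 3469.2 to 3691.9 FPKM in parental libraries. Most of each sum was HBG1, at 2260.1 and 2488.2 FPKM in untreated P/R and 2445.7 and 2488.2 FPKM in untreated parental libraries. The sums therefore say little about the other markers. The part of these 8 genes in the differences between the lines was not tested.

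**Figure D4:**
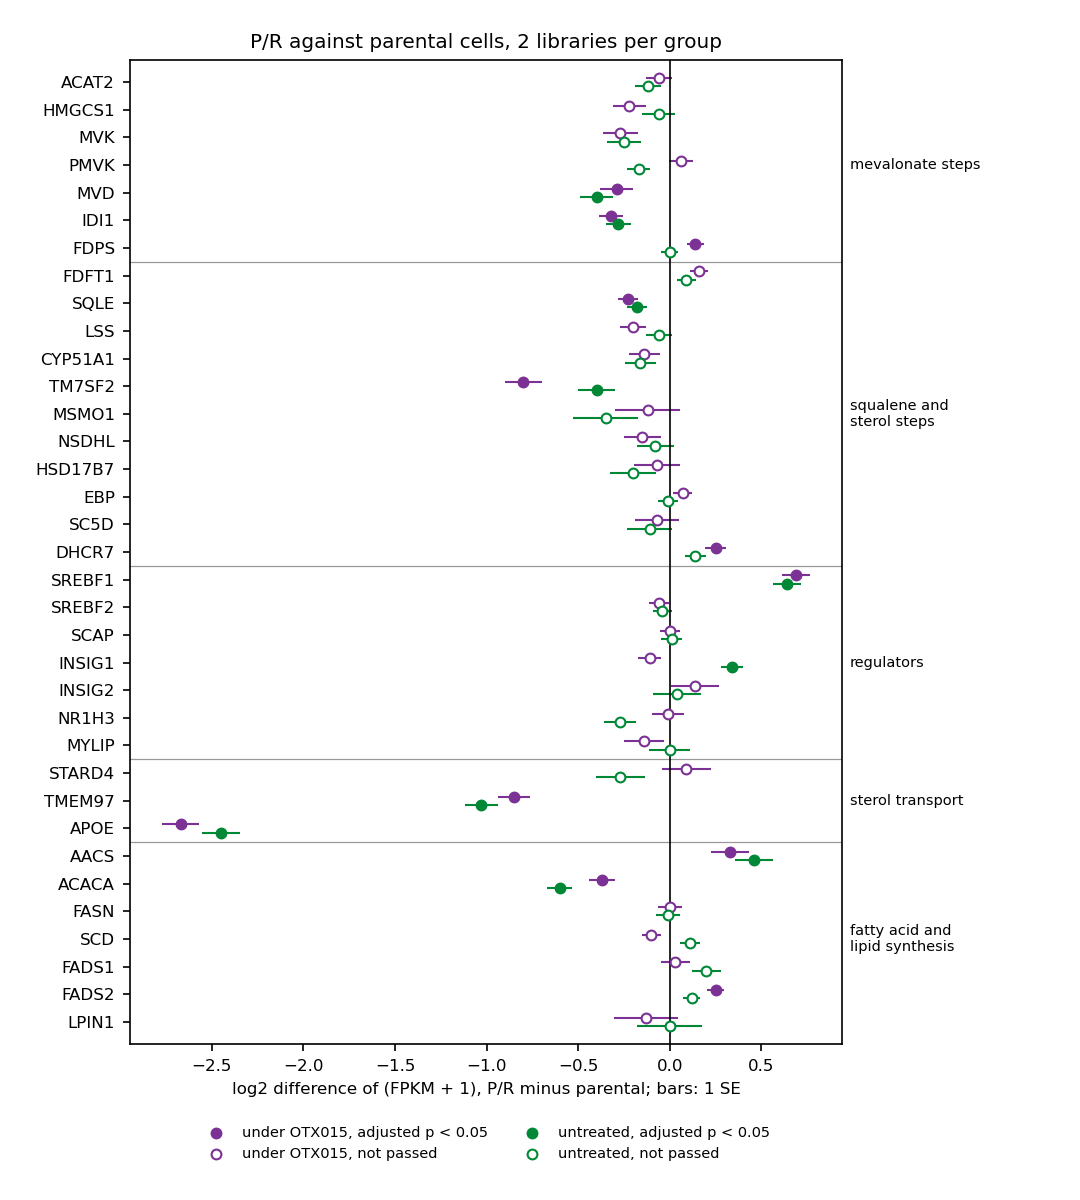
Log2 difference of (FPKM + 1), P/R minus parental, with 1 SE, under OTX015 (purple) and untreated (green). Filled points have an adjusted p under 0.05. APOE lies at -2.67 under OTX015 and -2.45 untreated, TMEM97 next at -0.85 under OTX015 and -1.03 untreated, and SREBF1 farthest to the right at 0.69 under OTX015 and 0.64 untreated.

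APOE showed the widest gap of all members. It read 4.28 and 3.84 FPKM in untreated P/R cells, against 24.7 and 28.5 FPKM in untreated parental cells. Under OTX015 it read 4.56 and 3.85 FPKM in P/R and 31.0 and 32.9 FPKM in parental cells. The lines were far apart and did not overlap in either condition. P/R cells held 0.152 of the parental level without drug (log2 -2.45 ± 0.102, adjusted p = 1.06e-06) and 0.131 under OTX015 (log2 -2.67 ± 0.102, adjusted p = 5.34e-07). The 40 nearest tested genes on chromosome 19 had a median log2 difference of -0.15 without drug and -0.11 under OTX015, and none of them was as low as APOE. Its neighbours APOC1, APOC2 and TOMM40 were named after their values were seen. APOC1, an apolipoprotein gene, averaged 39.3 FPKM in untreated P/R and 78.6 FPKM in untreated parental cells (log2 -0.98, adjusted p = 2.93e-06). APOC2, also an apolipoprotein gene, had log2 differences of -0.81 without drug (adjusted p = 0.062) and -0.84 under OTX015 (adjusted p = 0.0524). Its untreated P/R libraries were far apart, at 9.48 and 4.24 FPKM. TOMM40, of the mitochondrial import pore, averaged 321.3 FPKM in untreated P/R and 336.5 FPKM in untreated parental cells (adjusted p = 0.316).

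On chromosome 17 lie 4 members, and 3 of them are among the clearest differences between the lines. SREBF1 read 62.2 and 57.0 FPKM in untreated P/R cells, against 38.4 and 37.1 FPKM in untreated parental cells. Under OTX015 it read 55.0 and 47.4 FPKM in P/R and 31.2 and 31.3 FPKM in parental cells. P/R cells were higher throughout, by a log2 of 0.64 without drug (adjusted p = 0.000301) and 0.69 under OTX015 (adjusted p = 0.000179). The 40 tested genes nearest to SREBF1 had a median log2 difference of 0.42 without drug, when all 40 were above 0, and of 0.48 under OTX015, when 39 were. The overlapping gene RAI1 was also higher in P/R cells, by 0.54 without drug (adjusted p = 0.00348) and 0.74 under OTX015 (adjusted p = 0.000546). The part of the neighbourhood in the SREBF1 difference was not tested.

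TMEM97 and ACACA were lower in P/R cells. TMEM97 read 14.6 FPKM in both untreated P/R libraries, against 28.6 and 33.2 FPKM in untreated parental cells, and 12.9 and 11.2 FPKM in treated P/R against 22.6 and 22.4 FPKM in treated parental cells. No P/R library reached a parental one, and the log2 differences were -1.03 (adjusted p = 5.17e-05) without drug and -0.85 (adjusted p = 0.000147) under OTX015. TMEM97 lies inside a stretch of lower genes, near its edge. The 5 tested genes directly before it had differences below 0 in both conditions, and the 20 after it had a median of -0.53 without drug and -0.54 under OTX015. The 20 before it, which reach past that edge, had a median of 0.39 without drug and 0.38 under OTX015. None of these 40 was lower than TMEM97 without drug, and 2 were under OTX015. IFT20, a cilium transport gene whose exons overlap TMEM97 on the opposite strand, had log2 differences of -0.60 without drug (adjusted p = 0.000535) and -0.45 under OTX015 (adjusted p = 0.00242). ACACA read 20.2 and 22.4 FPKM in untreated P/R cells, against 32.5 and 33.4 FPKM in untreated parental cells (log2 -0.60, adjusted p = 0.000236), and its log2 difference under OTX015 was -0.37 (adjusted p = 0.0037). The 40 genes nearest to ACACA had medians of -0.42 without drug and -0.49 under OTX015, so that ACACA stood below its neighbours' median without drug and above it under OTX015. FASN, near the long-arm end, had a difference of -0.01 without drug and 0.00 under OTX015, and its 36 nearest genes had medians of 0.03 without drug and 0.02 under OTX015. The part of the neighbourhood in the TMEM97 and ACACA differences was not tested either.

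**Figure D5:**
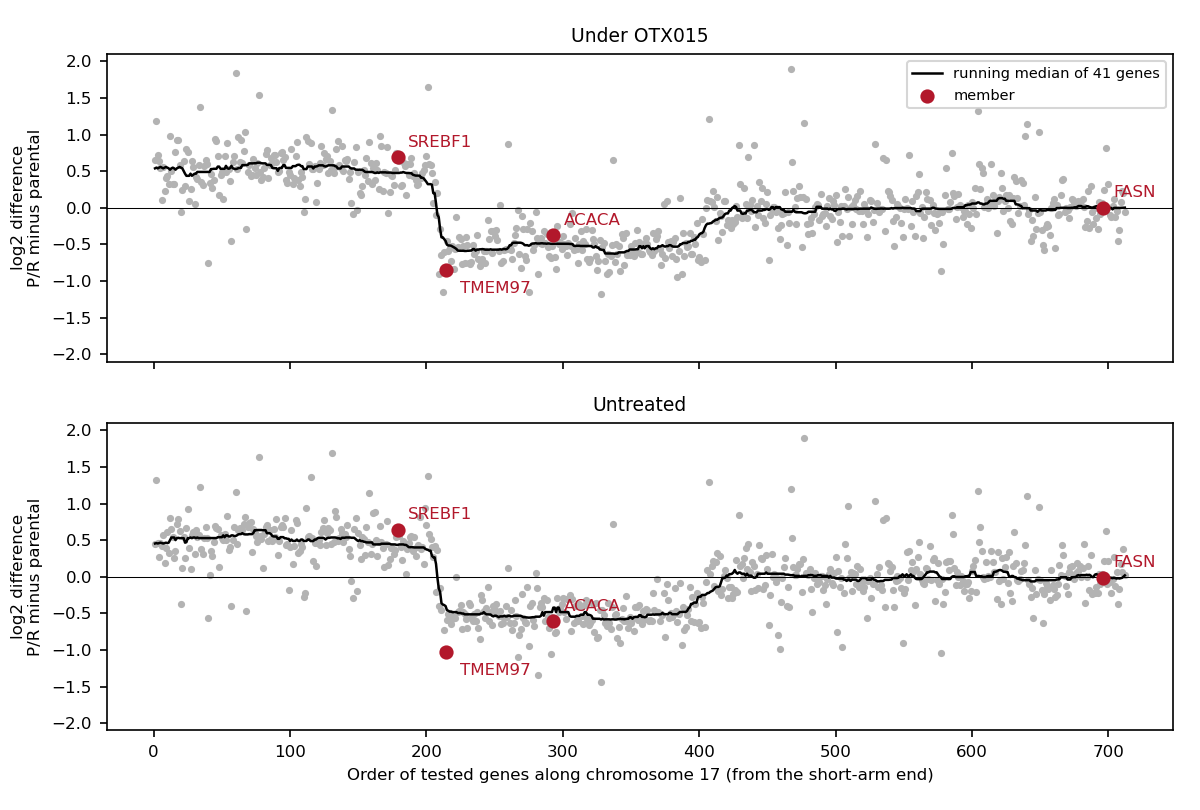
Log2 difference of (FPKM + 1), P/R minus parental, of the 712 tested genes in their order along chromosome 17 (grey), with a running median of 41 genes (line) and the 4 members (red), under OTX015 above and untreated below. SREBF1 lies in a stretch near 0.5, TMEM97 and ACACA in one near -0.5, and FASN in one near 0.

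Among the sterol enzymes, TM7SF2, MVD, SQLE and IDI1 were called lower in P/R cells in both conditions, and FDPS and DHCR7 higher under OTX015. Of the 7 mevalonate genes, 2 were lower and 0 higher without drug, and 2 were lower and 1 higher under OTX015. The counts were the same for the 11 genes from squalene to cholesterol. Of all tested genes, 11.9% were lower and 11.7% higher without drug, and 11.7% lower and 12.7% higher under OTX015. TM7SF2 read 10.9 and 8.96 FPKM in untreated P/R cells, against 14.1 and 12.6 FPKM in untreated parental cells (log2 -0.40, adjusted p = 0.0197). Under OTX015 its levels of 23.2 and 23.5 FPKM in P/R and 38.9 and 44.1 FPKM in parental cells lay farther apart (log2 -0.80, adjusted p = 0.000426). The difference in its response was -0.40 and did not pass (adjusted p = 0.405). MVD was lower by 0.40 without drug (adjusted p = 0.0116) and by 0.29 under OTX015 (adjusted p = 0.0439), and SQLE by 0.18 without drug (adjusted p = 0.0446) and 0.23 under OTX015 (adjusted p = 0.0122). IDI1, the isomerase, read 29.5 and 27.7 FPKM in untreated P/R and 33.2 and 36.5 FPKM in untreated parental cells (log2 -0.28, adjusted p = 0.0142), and was lower by 0.32 under OTX015 (adjusted p = 0.00659). The lines did not overlap in these 4 genes, which were taken from those called, so this adds no support to the calls. For TM7SF2, MVD, IDI1 and SQLE the median of the nearest tested genes lay between -0.03 and 0.06.

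AACS was higher in P/R cells, at 5.35 and 5.91 FPKM untreated against 4.18 and 3.49 FPKM in untreated parental cells (log2 0.46, adjusted p = 0.0116), and by 0.33 under OTX015 (adjusted p = 0.0486). INSIG1 was higher in untreated P/R cells (1.28-fold, log2 0.34, adjusted p = 0.00338), and under OTX015 its difference was -0.11 (adjusted p = 0.259). Under OTX015 FDPS, DHCR7 and FADS2 were higher in P/R cells, by 0.14, 0.25 and 0.25 on the log2 scale (adjusted p = 0.0488, 0.00943 and 0.00412). FADS2 read 221.1 and 212.7 FPKM in treated P/R and 186.0 and 177.8 FPKM in treated parental cells, with no overlap. Exons of FADS2 overlap those of FEN1 on the same strand and of FADS1 on the opposite strand, so these genes may share reads. The other 22 members were called in neither comparison of the lines. Among them were HMGCS1, LSS, CYP51A1, SREBF2, SCAP and FASN, whose log2 differences ran from -0.22 to 0.01.

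Leaving out 1 library changed some of these line calls, and the share over all genes was not counted here either. Without drug, SREBF1, INSIG1, TMEM97, APOE and ACACA held whichever library was left out. Without parental untreated replicate 2, 2 members were higher and 4 lower, and MVD (adjusted p = 0.0771), IDI1 (0.0949), SQLE (0.249) and AACS (0.0724) were lost. Without P/R untreated replicate 2, 2 were higher and 3 lower, and MVD (0.0711), IDI1 (0.109), SQLE (0.139), TM7SF2 (0.138) and AACS (0.0821) were lost. TM7SF2 (0.121) was also lost and STARD4 (0.0396) gained, as lower in P/R cells, without parental untreated replicate 1, and SQLE (0.185) without P/R untreated replicate 1. Under OTX015, IDI1, TM7SF2, SREBF1, TMEM97, APOE, ACACA and FADS2 held whichever library was left out. FDPS and AACS were lost with any of the 4 treated libraries left out (adjusted p from 0.0983 to 0.185 for FDPS and from 0.0671 to 0.241 for AACS), which left 3 higher, or 2 without parental OTX015 replicate 2, where DHCR7 (0.0617) was lost too. MVD was lost without either parental OTX015 replicate (0.0633 without replicate 1 and 0.218 without replicate 2) or P/R OTX015 replicate 2 (0.233), and SQLE without parental OTX015 replicate 1 (0.0592) or 2 (0.0559) or P/R OTX015 replicate 1 (0.0682).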

How the data were processed

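RNA was sequenced from 8 libraries in 4 groups of 2, mapped to groups by their titles. The authors deposited 1 table of 19718 coding genes, taken to be FPKM: the header names no unit, and it was inferred from the values and from TopHat2 2.0, Cufflinks 2.0 and hg19 in the submitters' processing notes. The values are labelled as quantile normalized by the authors, so depth and total RNA are not seen. The sources used here do not say how transcripts were selected or whether strand was kept.

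Genes with at least 1 FPKM in at least 2 libraries (11255) were fitted on log2(FPKM + 1) with 4 group means in limma 3.58.1 (R 4.3.3; eBayes with trend; 4 residual and 5.23 prior degrees of freedom), two-sided, adjusted by Benjamini-Hochberg over all genes. The fit was tested on simulated data. The log2 scale with a pseudocount of 1 understates changes of low genes; folds are ratios of mean FPKM. Members and lists were chosen with earlier results of these data known. All members are named; of 6 other lists, up to 2 called genes with the largest OTX015 change each, and HEXIM1. Genes that overlap or neighbour a member, and LRP8 and SCARB1, were named after their values were seen. Of the list symbols, 1 was not matched, and some genes that the lists or this rule include are not reported here by name. Gene order comes from GENCODE release 29 (GRCh38), matched by Ensembl identifier (11227 genes). Because the table's build is given as hg19, its genes carry no coordinates here, and promoter coordinates are those of RefSeq. Same-numbered replicates of different groups deviated together at r = -0.12 to 0.104, so replicate numbers were not taken as pairs. The alternatives tried were leaving out each library, a replicate block, fitting the compared groups alone, centring on medians, dropping the variance trend, pseudocounts of 0.1 and 5, and the filter either dropped or set to a mean of 5 FPKM.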

Additional observations from a re-analysis of the deposited data

How the results depend on the processing

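No call of a member changed direction under any alternative run. The number of members that fell with OTX015 in P/R cells was 9, and it was 5 without the filter, 3 without the variance trend and 5 with a replicate block. The number higher in P/R cells under OTX015 was 5, and it was 3 at a pseudocount of 0.1, 3 without the filter and 3 with a replicate block. In these 6 cases the cause was not tested. All other counts of members stayed within 1.5 times under the settings that keep all libraries. Leaving out 1 library gave 5 to 7 higher and 3 to 5 lower for OTX015 in P/R cells, 7 to 11 and 6 to 9 in parental cells, 2 to 3 and 3 to 7 between untreated lines, 2 to 3 and 5 to 6 between treated lines, and 0 for the difference in response.

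The replicate block changed no count by more than 1.5 times other than the pair above, and the numbers pair no samples. A block crossed between the lines, added after the data were seen because treated replicates deviated at r = -0.12, gave 4 members higher and 7 lower in P/R cells under OTX015. Low members such as STARD4, INSIG2 and MYLIP are left untested at a mean of at least 5 FPKM, and without counts the precision of low values is unknown. Median centring moved the libraries by at most 0.000322 on the log2 scale.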
